A study of Ovis aries with 60 samples.

Results

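In the sperm of 20 F2 rams, 2743 of 101164 CG cytosines on chromosomes 1 to 26 (2.71%) took 3 levels across the rams, near 0%, near 50% and near 100% methylation. These three-level cytosines were chosen on the F2 methylation levels themselves. At least 18 of the 20 rams had to lie at or below 10% (the low class), between 35 and 65% (the middle class) or at or above 90% (the high class), with at least 2 rams in the low and at least 2 in the high class. The 3 levels in F2, and anything that follows from them, are therefore a description and no finding.

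Sperm DNA of Polypay sheep (Ovis aries) was sequenced after bisulfite treatment in 10 F0 rams, 10 F1 pools and 20 F2 rams. The 5 treated F0 rams (numbered with a T) received a control diet with encapsulated methionine on top, 0.22% or 1.5 g, from weaning to puberty, and the 5 control F0 rams (C) the control diet alone. Each treated ram had a twin among the control rams. All F0 rams were mated with untreated ewes, 1 F1 ram of each F0 sire was mated with other untreated ewes, and all F1 and F2 animals ate the control diet. The F1 samples are pools of several rams, 1 pool for each F0 number, and how many rams each holds is not given in the sources used here. The F2 samples are 10 single rams per diet of the grandsire, 2 for each F0 number, so that the ram labelled ramF2_480.3T is a grandson of 3T. Because the 10 F2 rams of a diet come from 5 families, they are not 10 independent animals.

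In bisulfite sequencing an unmethylated cytosine is converted and read as thymine, while a methylated cytosine is still read as cytosine, and the share of cytosine reads is the methylation level. A thymine in the genome is read in the same way as an unmethylated cytosine. No DNA genotypes were analysed here, so an unmethylated cytosine and a genomic thymine cannot be told apart. Ejaculated sperm carry 1 copy of each chromosome, but a semen sample holds very many of them, so a feature carried on 1 of a ram's 2 copies appears in about 50% of the reads. Mammalian sperm DNA is known to be highly methylated at most CG sites outside of CpG islands, and methylation is largely erased and rebuilt between generations.

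Coverage was a median of 26 reads per ram at the three-level cytosines (12 to 38 between rams) against 25 at all autosomal CG sites. The markers of sperm, PRM1, TNP1, ODF1, AKAP4 and SPATA18, were found in the RNA of these 20 rams, with a sum of 15.8 to 3985 CPM (counts scaled to the same library total). The sum of the leukocyte markers PTPRC, CD74, CXCR4 and LYZ was 42.1 to 1725, although the protocol names a lysis step for somatic cells ahead of the RNA extraction. The part of other cells in the methylation levels was not tested. Of the epithelial markers 1 gene, KRT5, was in the table, at 0.165 to 19.9 CPM.

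Of 54860 levels (2743 cytosines in 20 rams), 26.5% were low, 38.5% middle and 28.7% high, and 6.24% lay between the classes. The low class was close to 0. Of the reads behind its levels, 0.340% were methylated, and 91.6% of its levels were exactly 0. Low levels at the other autosomal CG sites were less extreme, with 2.42% of reads methylated and 74.8% of levels at 0. The high class did not stand apart in this way. Here 97.1% of reads were methylated against 96.9% for high levels elsewhere, and 46.9% and 46.4% of levels were exactly 100%. In the middle class 48.97% of reads were methylated. Coverage was alike in the classes, with medians of 1.00, 1.03 and 1.00 times the ram's own median in the low, middle and high class.

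The number of rams per class varied from cytosine to cytosine. The low class held 2 to 17 rams, the middle class 0 to 15 and the high class 2 to 18, with medians of 5, 8 and 5. More rams were low than high at 1223 cytosines and more were high than low at 1372. All 20 rams were in a class at 526 cytosines, 19 at 1008 and 18 at 1209. Of the cytosines, 1367 were on the plus and 1376 on the minus strand.

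Examples close to the threshold, 2 on each side of the 18-ram limit, were picked by their coverage. The member with 18 rams in a class and the deepest coverage was chr15:52652451 (minus strand), where 12 F2 rams were low, 4 middle and 2 high and the remaining 2 rams (ramF2_320.5T and ramF2_400.24C) had 31.1 and 31.2%. The next, chr1:10268846 (minus strand), had 2 low, 8 middle and 8 high rams, and its 2 rams without a class, ramF2_480.3T and ramF2_409.24C, were at 86.8 and 75.3%. Just outside, with 17 rams in a class, chr12:57648279 (plus strand) had 2 low, 7 middle and 8 high rams, and 3 rams at 29.4, 66.7 and 87.8%. At chr2:102951681 (minus strand), also just outside, the 3 rams without a class had 34.3, 66.7 and 66.7%. In all, 2820 autosomal CG sites had the same outer classes but fewer than 18 rams in a class, 1055 of them with 17 rams.

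The 6 cytosines below were named because all 20 F2 rams had a class there, the class counts came nearest to 5, 10 and 5, and the site was also listed in F0 and F1. At chr13:49548420 (plus strand), 5 F2 rams were low, 10 middle and 5 high, at 21 to 74 reads. Both grandsons of 3T had 0%, and both grandsons of 12C were high at 100 and 92.7%. The pair of 11T had 50 and 51.7%. The pair of 10C lay at opposite ends, 98 and 1.61%.

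The same 3 levels appeared at chr13:49548420 in the F0 rams, which the rule had not used. Rams 3T, 9T, 23T, 10C and 24C had 0%, each at 82 to 126 reads. Rams 5T, 4C, 6C and 12C had 45.8, 49.1, 54.5 and 50%, and 11T had 98.7%. In the F1 pools the levels were spread out. The pools of 3T, 9T and 23T had 0, 19.3 and 4.67%, those of 10C and 24C had 35.4 and 31.8%, and that of 11T had 52.1%. All 5 pools of the sires at 0% lay at or below 35.4%, and the pools of 5T, 4C and 12C lay higher, at 51.9, 44.4 and 54.8%, with that of 6C among the former at 34.2%.

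At chr22:39043698 (minus strand), F0 rams 11T and 4C were low (0 and 0.980%), 3T and 6C high (98.7 and 96.0%), and the other 6 rams lay between 36.4 and 52.2%. The pools of the low sires had 18.6 and 22.9% and those of the high sires 81.0 and 84.1%. Both grandsons of 11T were low (2.22 and 0%), and those of 3T were middle (47.3 and 47.5%). The pools of low and high sires did not overlap here. Those of the middle sires ranged from 25.5% (5T), above the pools of the low sires, to 95.7% (12C), above those of the high sires.

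At chr10:51937466 (minus strand), F0 rams 11T, 23T and 12C were low, with 1.14, 0.952 and 0%. Rams 3T, 4C and 6C were high, with 95.7, 100 and 97.5%, and 5T, 9T, 10C and 24C were middle, with 47.1, 49.4, 47.1 and 59.2%. The pools of the low sires had 28.3, 26.4 and 48.5% and those of the high sires 84.6, 57.1 and 63.2%. Both grandsons of 3T were high (97.1 and 98.7%) and both of 23T were at 0%.

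The other 3 named cytosines, chr1:202578093, chr1:240019288 and chr23:8027062 (all on the plus strand), had 26 of their 30 F0 levels in a class, and the 4 exceptions included 12C at 89.5% and 6C at 34.6%. At chr1:202578093, 2 F0 rams were low, 1 middle and 5 high. At the other 2 cytosines no F0 ram was low, with 6 middle and 3 high at chr1:240019288 and 5 middle and 4 high at chr23:8027062. The pools did not always lie near their sire. At chr23:8027062, 11T had 97.1% and its pool 46.4%, while 5T had 30% and its pool 84.6%, the latter at 13 reads. In the plot of these 6 cytosines the F0 and F2 rams fall into the shaded classes and the pools spread between them. At 3 of the 6, the share of the summed F2 reads differed between the diets by more than 20 points, by -23.3 points (treated minus control) at chr13:49548420, by -29.0 at chr22:39043698 and by 31.99 at chr1:202578093. The F2 levels chose these cytosines, so these 3 differences are a description. In the generations that the rule had not used, summed reads differed by over 20 points at chr10:51937466 in F0 (-25.0 points, adjusted p = 1.75e-12) and at chr1:240019288 in F1 (-20.6 points, adjusted p = 7.20e-06), by a likelihood-ratio test with reads as the unit and Benjamini-Hochberg adjustment over all CG sites of the generation. In F0 and F1 the mean levels of the 5 treated and 5 control samples were compared at the 6 cytosines by two-sided exact permutation tests, which can give no p below 0.00794. Of these 12 tests, 0 had an unadjusted p under 0.05, and the smallest exact p was 0.151, at chr1:240019288 in F1. There the treated pool was lower in all 5 pairs of consecutive numbers, with a mean difference (treated minus control) of -19.97 points (SD 10.2). With these pairs kept together, an exact two-sided permutation of the signs gave p = 0.0625 (adjusted p = 0.6 over the 12 tests), the smallest that 5 pairs can give. In the other 11 tests the 5 pairs did not all have 1 direction.

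**Figure D1:**
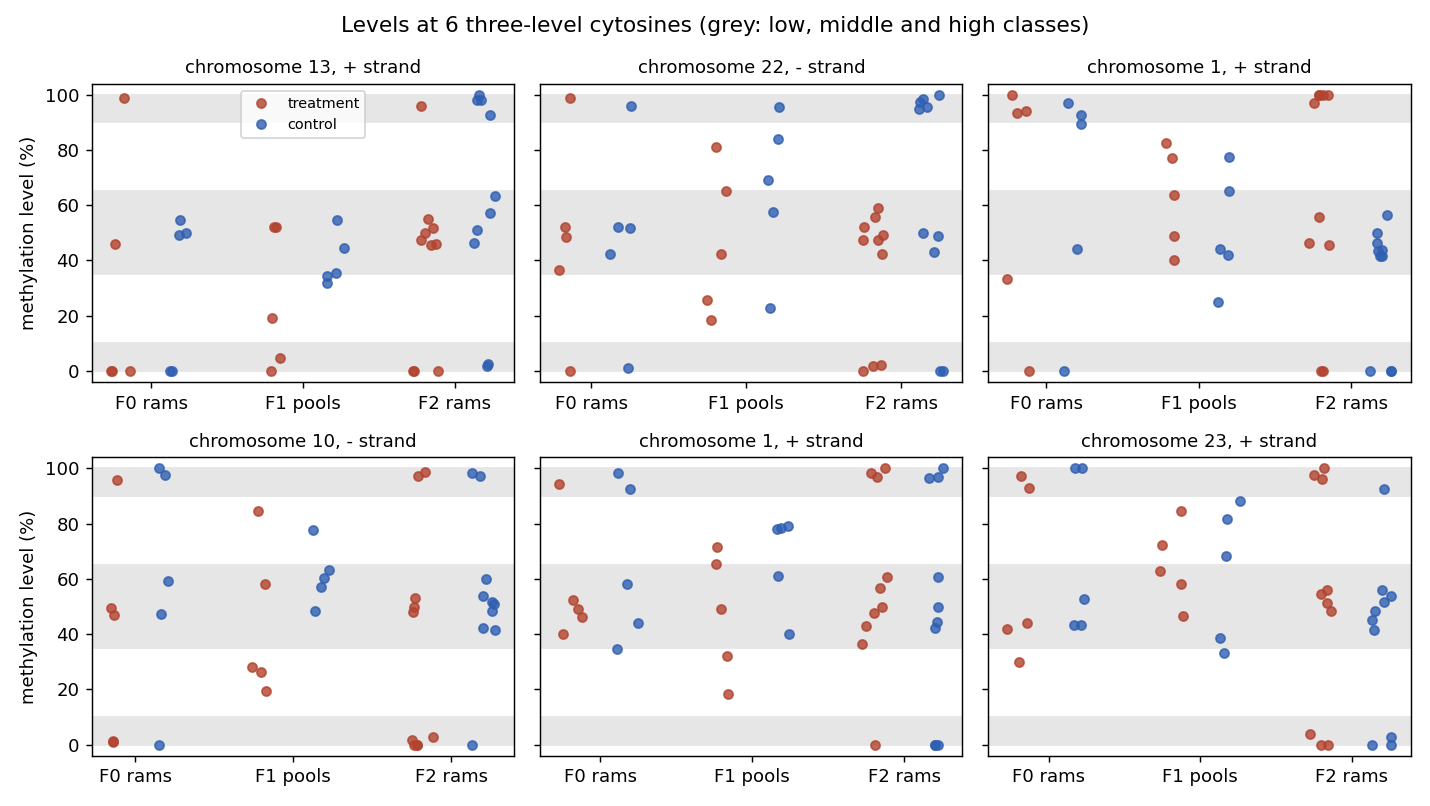
Methylation level (%, y axis) of every F0 ram, F1 pool and F2 ram at the 6 named cytosines, 1 panel each, with 1 point per sample, red for treatment and blue for control, and grey bands for the low, middle and high classes. F0 and F2 rams lie in or near the bands in both diet groups, and F1 pools lie between them as well.

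Where a feature is inherited on chromosomes and mating is random, the classes take the Hardy-Weinberg shares, in which the middle class is 2pq of all animals (p being the share of the high side and q that of the low side). Counting a high ram as 2 and a middle ram as 1 of its copies, p ranged from 0.125 to 0.9 over the three-level cytosines, with a median of 0.525. The middle class held 41.1% of F2 rams in a class against 45.4% by 2pq, a ratio of 0.905. The SD of this ratio over the 20 rams was 0.0724. At 861 cytosines more rams were in the middle class than 2pq gives, at 1799 fewer.

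The shortfall was not even over p. Where p was from 0.4 to below 0.5, the middle class was 48.3% of rams against 49.3% by 2pq (471 cytosines), and from 0.5 to below 0.6 it was 47.7% against 49.5% (615 cytosines). Where p was below 0.2 (26 cytosines), 13.2% were observed against 28.3%, and from 0.8 to below 0.9 (50 cytosines) 13.4% against 29.0%. The rule itself sets these ends. It asks for 2 rams in the rarer outer class, which leaves few rams for the middle class when that side is rare. By binomial sampling at 50% methylation, 65.6% of levels would fall between 35 and 65% at 10 reads, 88.5% at 20 and 96.2% at 40, and the part of counting error in the ratio was not tested. Counted with limits at 25 and 75% so that every ram had a class, the ratio was 0.930. At the 87 members with at least 20 reads in every ram it was 0.961.

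**Figure D2:**
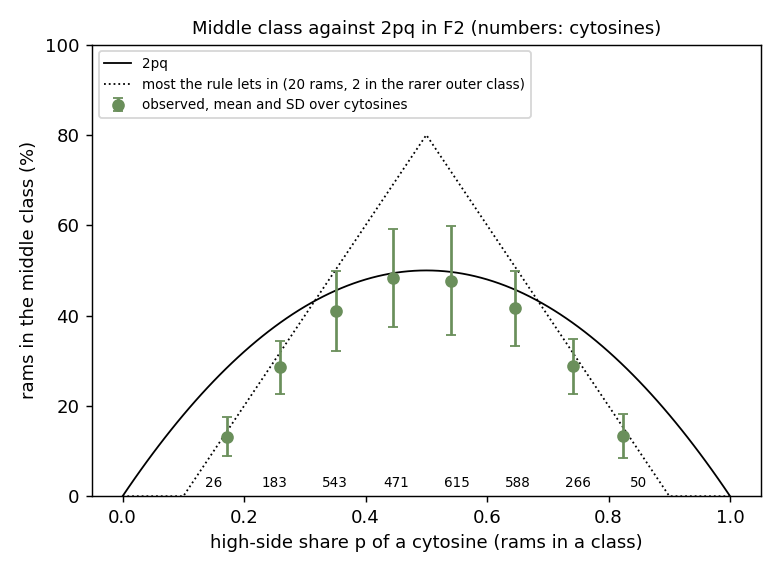
Share of rams in the middle class (%, y axis) against the high-side share p (x axis) in 8 bins of p, as the mean and SD over cytosines, with the number of cytosines written under each point, the 2pq curve as a solid line and the most that the rule lets in as a dotted line. The points lie near the solid curve between 0.4 and 0.6 and follow the dotted line at both ends.

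The F0 rams were not used to choose the cytosines, and 2019 of the 2743 positions (73.6%) were listed in F0, much as for the other autosomal CG sites (73.0%). At these, 89.8% ± 3.57 (SD, n = 10 rams) of F0 levels fell in a class, 22.8% low, 40.1% middle and 26.9% high. At the 71848 other autosomal sites listed in both generations, 70.4% of F0 levels fell in a class, 4.75% low, 15.3% middle and 50.4% high. The F0 low class was again near 0, with 0.258% of reads methylated and 92.1% of levels at exactly 0. At 817 positions (40.5%) at least 9 of the 10 F0 rams had a class with both outer classes present, against 1.81% of the other sites. The cytosines that missed the rule only by the number of rams in a class came closer. At the 1876 of them listed in F0, 78.3% of F0 levels fell in a class and 476 (25.4%) had at least 9 rams in a class with both outer classes present. All 10 F0 rams were in the same outer class at 15 positions. The median SD over F0 rams was 29.5 points at three-level cytosines, 28.3 points at those that missed the rule and 6.59 points over all sites that were not three-level.

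The F0 rams had more middle levels than 2pq gives, 44.7% of levels in a class against 39.8%, a ratio of 1.12, on the other side of 1 from the F2 rams. With 2pq corrected for the small number of rams (a factor of 2n/(2n-1) for n rams) the F0 ratio was 1.06 and the F2 ratio 0.881. The factor takes the rams as unrelated, but the F0 rams include twins and the F2 rams came in families. The F2 rams that chose the cytosines are grandsons of these rams, and the part of the rule in the F0 ratio was not tested. The mean levels of F0 and F2 at the same position had a median absolute difference of 11.3 points. Across the 2019 positions Pearson's r of these means was 0.666, as a description, since positions close to each other share their animals and are not independent.

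Among the F0 rams, 23T had the fewest levels in a class, 81.2%, and the lowest coverage at these positions, a median of 24 reads. The other 9 rams had 87.9 to 94.1%. In F2, ramF2_400.24C had 84.8% at a median of 12 reads and ramF2_320.5T 86.6% at 17 reads, while the highest, ramF2_329.23T, had 97.2% at 38 reads. Rams ramF2_409.24C and ramF2_480.3T had 88.7 and 89.6% at 25 and 27 reads, and the part of coverage in these shares was not tested. In these 2 rams, 21.8 and 20.6% of levels were high, against a median of 29.9% over the 20 rams.

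The F1 pools did not show the 3 levels. At the 1964 positions listed in F1, 7.64% of levels were low, 35.8% middle and 9.05% high, and 52.4% ± 3.88 (SD, n = 10 pools) were in any class, against 66.1% at the other autosomal sites. At 4 positions 9 or more pools had a class with both outer classes present. The pools still differed from each other far more here than elsewhere, with a median SD of 21.7 points against 6.23. Their mean level lay nearer to that of the F2 rams than the F0 mean did, with a median absolute difference of 6.74 points and r = 0.819 over 1964 positions. Pools 10C and 12C had more levels in a class (60.7 and 58.4%) than the other 8 pools (48.6 to 51.6%).

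**Figure D3:**
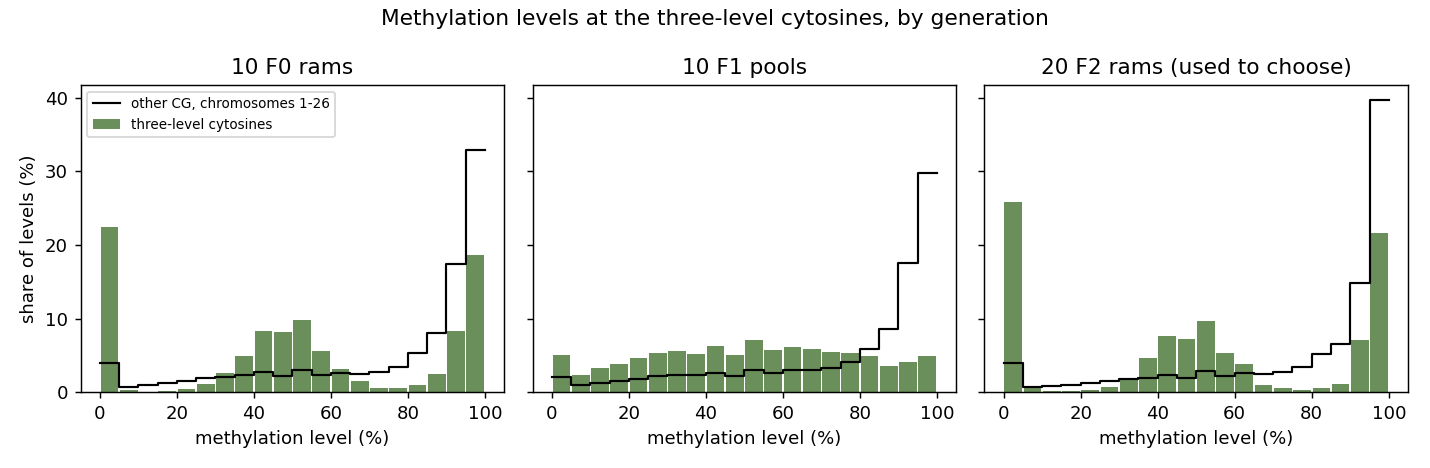
Share of methylation levels (%, y axis) in steps of 5 points of level (x axis) in the F0 rams, F1 pools and F2 rams, as green bars for the three-level cytosines and a black line for all other CG sites on chromosomes 1 to 26. F0 and F2 have 3 peaks at the three-level cytosines while the F1 pools lie mostly between the outer classes with 2.40 to 7.08% of levels per step, and the other sites pile up at the high end in every generation.

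Each pool was closest to the F0 ram whose number it carries. At the 1822 three-level cytosines listed in both F0 and F1, the mean absolute difference in level between a pool and its own sire was 17.3 to 21.9 points over the 10 pools. Between a pool and any other F0 ram it was 25.5 to 34.8 points (90 pairs). The ranges did not overlap, and own sire was nearest for 10 of 10 pools. At the other autosomal sites the means of the same differences were 7.90 and 9.72 points.

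The levels of a pool followed the class of its sire. Where the own sire was low, the pool had a median level of 18.98 to 23.2%, where the sire was middle 47.4 to 52.1%, and where the sire was high 76.5 to 80.4% (ranges over the 10 pools). Where the low ram was another sire, the median was 28.1 to 47.8%. The slope of the pool's level on the own sire's was 0.559 ± 0.0166 (SD, n = 10 pools).

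A pool was seldom on the far side of its own sire. Of 4129 levels with a low own sire, 49 were above 60% in the pool, and of 4921 with a high own sire, 85 were below 40%. Together this was 0.324 to 3.85% of the positions where the sire was low or high, over the 10 pools. With any other F0 ram it was 11.1 to 31.1%, and with the ram of the consecutive number (3 and 4, 5 and 6, and so on) 11.1 to 17.6%. The highest own-sire shares, 3.85 and 2.76%, were in pools 10C and 12C.

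**Figure D4:**
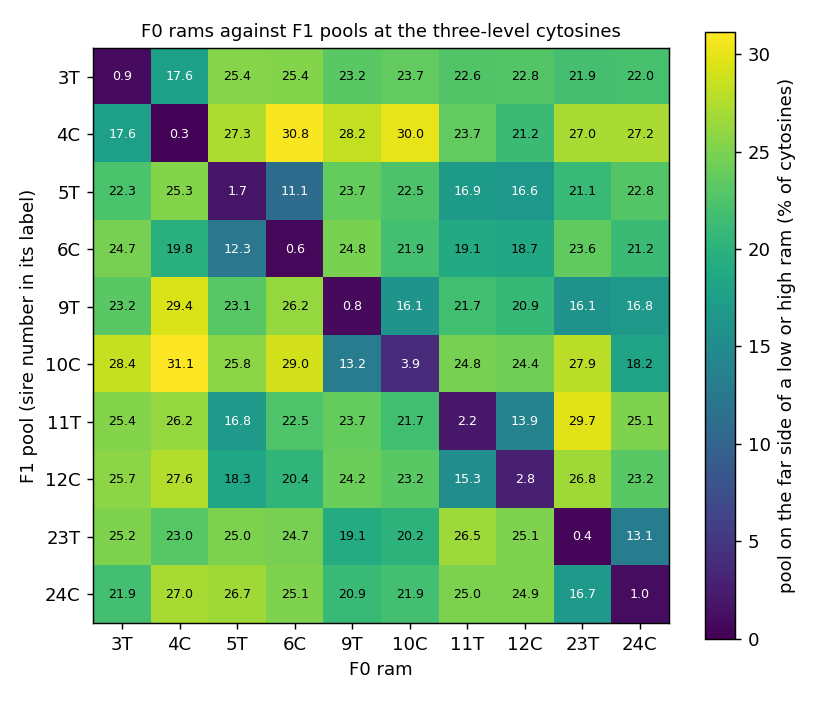
Share (%, colour and number) of the three-level cytosines with a low or high F0 ram (columns) at which the F1 pool (rows) was on the far side. The far side is above 60% for a low ram and below 40% for a high ram. The diagonal, a pool with its own sire, runs from 0.3 to 3.9%, and the neighbouring cells of consecutive numbers are the next lowest in most rows.

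F2 rams of 1 family shared their class more often than rams of different families. Over the 10 pairs with a common F0 grandsire, 45.8% ± 2.64 (SD) of three-level cytosines had the same class, from 41.6 to 50.1%. Over the 180 pairs from different families it was 37.5% ± 2.13, from 33.4 to 45.2%. In 6 of the 10 family pairs the share was above that of every other pair, and for 17 of the 20 rams the closest of the other 19 was the ram of the same family. Opposite outer classes were rarer within families, with 6.91% ± 0.924 against 14.6% ± 2.16. The pairs share rams with each other and the positions were chosen on these levels, so no test was made. The other autosomal sites went the same way. There the same class was shared at a mean of 91.4% of sites within and 88.9% between families. Opposite classes made up 0.382 and 0.801%.

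Sharing was much the same within and between diets. Pairs of different families had the same class at 37.4% ± 2.08 of cytosines when the diet of the grandsire was the same (80 pairs) and at 37.6% ± 2.18 when it differed (100 pairs). Only the latter include pairs whose grandsires carry consecutive numbers, as such numbers always join a treated and a control ram. The part of these pairs in the comparison was not tested. The closest pair from different families was ramF2_320.5T and ramF2_485.6C, at 45.2%, whose grandsires carry consecutive numbers and different diets.

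Likeness reached back to F0. An F2 ram had the class of its own grandsire at 46.6% ± 1.90 of positions (20 pairs, 43.5 to 49.4%) and that of another F0 ram at 39.2% ± 2.40 (180 pairs, 33.2 to 47.7%). For 19 of 20 rams the own grandsire was the closest F0 ram. The exception was ramF2_320.5T, which shared 47.7% with 6C and 45.6% with its own grandsire 5T.

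Among the F0 rams, pairs with consecutive numbers stood apart. The 5 such pairs, each of 1 treated and 1 control ram, shared the class at 54.9 to 62.5% of positions, against 37.3 to 51.5% for the other 40 pairs. For each of the 10 rams the closest was the ram of the consecutive number. At the other autosomal sites pairs with consecutive numbers shared the class at 92.8 to 94.7%, against 88.4 to 93.5% for the other pairs. The pair of 3T and 4C was the least alike of the 5, at 54.9%, and the pair of 11T and 12C the most, at 62.5%. The labels state that treated and control rams were twins without naming the pairs.

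**Figure D5:**
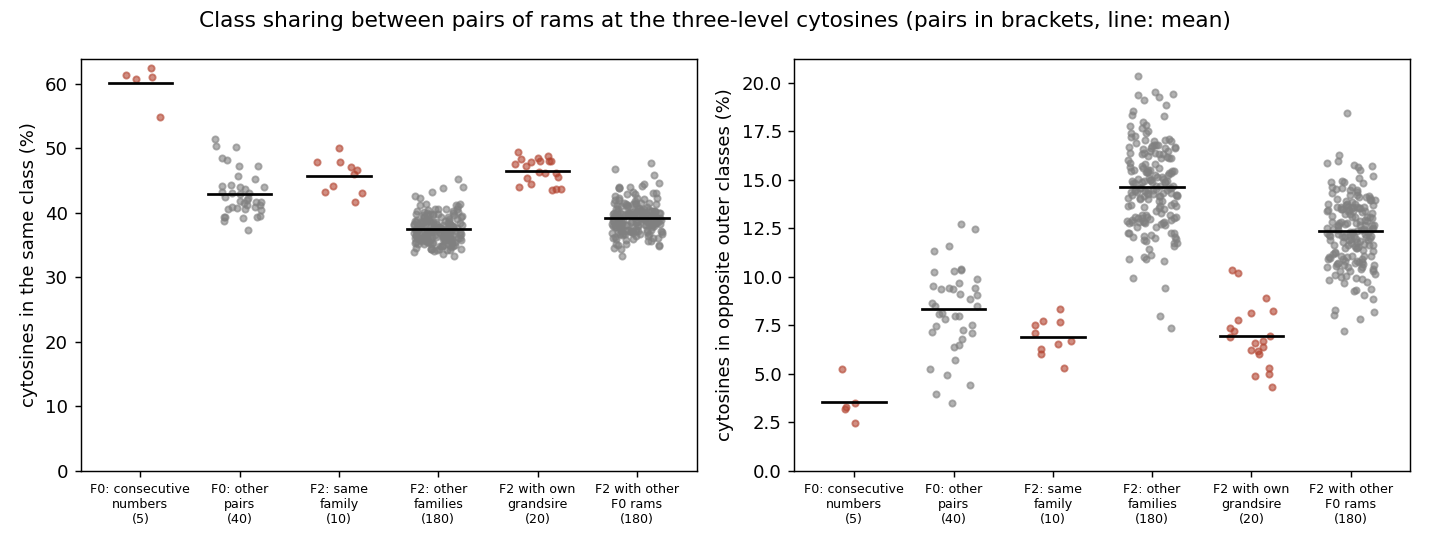
Share of three-level cytosines (%, y axes) in the same class (left) and in opposite outer classes (right) for pairs of rams, 1 point per pair, with F0 pairs of consecutive numbers, F2 pairs of 1 family and F2 rams with their own grandsire in red, other pairs in grey and a line at the mean. The red pairs on average share the class more often and oppose each other less often in F0, in F2 and between F2 and F0.

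The three-level cytosines were spread over all 26 autosomes, from 1.54% of listed CG sites on chromosome 11 (18 cytosines) to 3.84% on chromosome 12 (121 cytosines). Chromosome 1 held the most, 367. Taken at least 100 kb apart, 2266 of the 2743 remained. Only sites with enough reads in every F2 ram were listed, 101164 on the autosomes. Distances between three-level cytosines therefore depend on which sites were listed. Whether they lay closer together than other listed sites was not tested.

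Nearby three-level cytosines had more closely correlated classes than distant ones. The squared correlation r2 of the classes over the F2 rams averaged 0.819 for the 90 pairs less than 1 kb apart and 0.642 for the 73 pairs from 1 to below 10 kb. It fell to 0.385 at 10 to 100 kb (428 pairs), 0.247 at 100 kb to 1 Mb (3320 pairs) and 0.156 at 1 to 10 Mb (29241 pairs). Between chromosomes it averaged 0.0668 (3532762 pairs). Of the 90 closest pairs, 57 had an r2 of at least 0.8, and in 54 of these 57 the correlation was positive, so that rams high at one cytosine tended to be high at the other. In the remaining 3 it was negative. Of all 90, 78 had a positive correlation, against 14599 of the 29241 pairs 1 to 10 Mb apart.

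The 5 kb window with the most members held 3 of them, chr1:77267442 (minus strand), chr1:77268855 and chr1:77269561 (both plus strand). At all 3, ram ramF2_485.6C had 100% and ramF2_413.12C 96.6 to 100%, while ramF2_323.23T, ramF2_329.23T, ramF2_449.4C, ramF2_453.4C, ramF2_350.6C, ramF2_468.10C and ramF2_475.10C had 0%. The sites did not agree in every ram. Ram ramF2_500.3T was middle at chr1:77268855 (57.7%) and high at the other 2 sites (100%), and ramF2_480.3T was at 0% at the former and at 57.7 and 48.3% at the others. In F0, where the latter 2 sites were listed, 6C was high at both (95.7 and 95%), 5T, 11T and 3T ranged from 34.6 to 66.7%, and the other 6 rams were between 0 and 2.27%.

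Most listed CG sites beside the three-level cytosines were not members, and these were steadier. Within 100 bp, 808 members had a listed neighbour, with 903 neighbours that were not members themselves and 92 that were. The 903 had a median SD over the F2 rams of 5.42 points, against 9.10 points for all autosomal CG sites, and a median mean level of 95.2%. The members had a median SD of 34.5 points, a wide spread that the rule itself asks for. Of the 903, 67.7% were at 70% or more in every ram, compared with 44.3% of all autosomal sites. The correlation of a member's levels with those of such a neighbour had a median of 0.0970 over 918 pairs, and in 41 it was at least 0.8. The cytosine on the other strand of the same CG was listed for only 4 of the 2743 members. This was a smaller share than the 1.41% of all autosomal sites that had it listed. These 4 were the paired cytosines of 2 CG dinucleotides, both strands of which were three-level.

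Diet differences were then compared. Reads were summed over each diet group, and a differentially methylated cytosine (DMC) was one whose methylated share differed by 20 points or more with an adjusted p no higher than 0.01 (likelihood-ratio test on the summed reads, Benjamini-Hochberg adjustment over all CG sites of the generation). The unit of this test is the read, and variation among rams does not enter it. In F2, where members were chosen for wide spread, 773 of 2743 members were DMCs (28.2%), against 2.19% of all listed CG sites. Of these 379 were higher and 394 lower in the treated group. Since the rule asks for rams at both ends of the scale, it favours sites with large differences between any 2 groups of rams.

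Of all autosomal CG sites, 2661 (2.63%) had an F2 diet difference of at least 20 points, and 773 of them (29.0%) were three-level cytosines, which made up 2.71% of the sites. Another 706 (26.5%) had both outer classes but fewer than 18 rams in a class, and 1182 (44.4%) were neither. The share of three-level cytosines grew with the size of the difference. It was 16.7% of 9847 sites at 10 points or more, 37.6% of 689 at 30 points, 53.9% of 128 at 40 points and 66.7% of 18 at 50 points. Among all 2820 sites with both outer classes but fewer than 18 rams in a class, 25% were F2 DMCs.

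In F0, 379 of 2019 members were DMCs (18.8%), 190 higher and 189 lower in treated rams, against 1.82% of all listed CG sites. In F1, 222 of 1964 were DMCs (11.3%), 98 higher and 124 lower, against 1.00% of all. The sites that had both outer classes in F2 but fewer than 18 rams in a class were DMCs in 15.8% of cases in F0 (297 of 1876) and 9.60% in F1 (174 of 1812). The members formed 0.644 and 0.667% of the listed CG sites and 6.63 and 7.53% of the DMCs in F0 and F1. The median absolute difference at members was 10.6, 9.22 and 12.7 points (F0, F1, F2), compared with 3.18, 3.03 and 2.24 points over all listed sites.

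The levels were then compared with rams or pools as the unit. With limma on the methylation levels, 0 members were called in F0, F1 or F2, and 0 of all CG sites. How large a difference limma could call with this many samples and this spread among them was not tested. Without adjustment, 58 members (2.87%) had p under 0.05 in F0 against 4.11% of all CG sites, and 125 (6.36%) in F1 against 4.82%. In F2 it was 246 members (8.97%) against 2.96%, a description only, because the F2 levels chose the members for wide spread. With the F0 sire as a block in F2, the correlation within families was 0.292, estimated at the members and applied to all CG sites. In this fit 0 members were called, and 160 (5.83%) had an unadjusted p under 0.05 against 1.40% of all, which is a description for the same reason. With F0 rams of consecutive numbers taken as pairs, and likewise their pools, 0 members and 0 of all CG sites were called, and 146 members (7.23%) had an unadjusted p under 0.05 in F0 against 5.71% of all, and 251 (12.8%) in F1 against 5.70%. The levels of the diet groups did not overlap at 5 of 2019 members in F0, 13 of 1964 in F1 and 0 of 2743 in F2. Over all listed CG sites it was 1802 of 313527 (0.575%), 1974 of 294661 (0.670%) and 1 of 122453 (0.000817%). In F0 and F1 the share of members was thus no higher than that of all sites.

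The members with the largest differences upward were chr6:103847553 and chr1:275285274 (both minus strand), with treated minus control differences in reads of 61.9 and 56.8 points. At chr1:275285274, in an intron of STAG1 (a subunit of cohesin) in the study's list, the 10 treated F2 rams ranged from 40.6 to 100% with a median of 52.5%. The control rams were at 0% except for ramF2_350.6C and ramF2_485.6C, at 53.1 and 57.1%, which are both grandsons of 6C. In F0, 5T and 23T were high (98.5 and 97.6%), 3T, 9T, 4C and 6C ranged from 44.9 to 59.1%, and 11T, 10C, 12C and 24C had 0%. Of the 4 control families with both grandsons at 0%, those of 10C, 12C and 24C had a grandsire at 0%, and that of 4C had one at 56.8%. The family of 11T differed from its grandsire in the treated group, with 0% in 11T and in its pool and 41.0 and 43.2% in its grandsons ramF2_426.11T and ramF2_340.11T. The difference in reads in F0 was 34.3 points, and the site was a DMC there. In F1 the treated pools ranged from 0 to 59.0% and the control pools from 0 to 33.9%. The F1 difference in reads was 16.6 points, and the site was not a DMC in F1. The largest differences downward were at chr10:60414339 (plus strand) and chr2:176872385 (minus strand), -58.1 and -56.9 points.

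Of the 72847 CG sites listed in all 3 generations, 83 were DMCs in each (0.114%), and 35 of these 83 (42.2%) were three-level cytosines, which were 2.501% of the sites. Another 22 had both outer classes in F2 but fewer than 18 rams in a class. The rule favours large F2 differences, so this share and the shares below that include F2 are a description. In 32 of the 35 the difference had 1 direction in F0, F1 and F2. Over all 83 the difference had 1 direction in 74 (89.2%), and this share was 91.4% for the members. For pairs of generations the shares in 1 direction were also close to those of all CG sites. Among members with values in F0 as well as F1, 84 (4.61%) were DMCs in each, against 0.371% of all CG sites, and 84 of these 84 members and 855 of 861 sites (99.3%) had 1 direction. In F0 and F2, 130 members (6.44%) were DMCs in both against 0.391% of all, with 1 direction in 99 members (76.2%) and in 78.5% of all such sites. In F1 and F2 it was 90 members (4.58%) against 0.287% of all, with 1 direction in 81 members (90%) and in 205 of 228 sites (89.9%). These animals are related by descent, so the generations are not independent of each other.

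The 6 members with the largest smallest difference over the generations were lower in the treated group in each. At chr5:95675232 (minus strand), in a LINE element in an intron, the differences in reads were -37.7, -34.4 and -40.0 points (F0, F1, F2). All 10 treated F2 rams were between 0 and 3.70%. Of the control rams, ramF2_453.4C and ramF2_468.10C were high at 96.2 and 98.4%, ramF2_475.10C, ramF2_413.12C and ramF2_409.24C had 46.2, 39.3 and 51.1%, and the other 5 were between 0 and 1.96%. In F0, 11T had 55.7% and the other 4 treated rams 0 to 1.30%, while 4C had 97.6%, 10C, 12C and 24C had 41.8, 45.5 and 50%, and 6C had 0%. Both grandsons of 6C, ramF2_350.6C and ramF2_485.6C, were low like their grandsire, as were all 8 grandsons of 3T, 5T, 9T and 23T. Among the grandsons of 4C, ramF2_453.4C was high like 4C and ramF2_449.4C had 0%. Both grandsons of 11T had 0%, unlike their grandsire. The groups overlapped in F0 and in F2. In F1 they did not, with the treated pools at 10.8 to 32.6% and the control pools at 35.6 to 85%.

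At chr6:118344505 (minus strand, intergenic) the differences in reads were -54.6, -40.1 and -42.2 points in F0, F1 and F2. The treated F0 rams 3T and 23T had 0% and 5T, 9T and 11T 35.7, 37.5 and 39.3%, all below the control rams, with 4C, 6C, 10C, 12C and 24C at 50, 97.6, 88.9, 96.97 and 47.6%. In the treated F2 rams 8 of 10 were at 0%, with ramF2_323.23T at 50% and ramF2_372.9T at 100%. The control F2 rams ranged from 0 to 95.8% with a median of 50.9%. The others were chr15:41364174 and chr17:6332361 (plus strand, intergenic LINE elements), chr1:133790717 (plus strand, intergenic) and chr2:13312188 (minus strand, in an intron of SVEP1, which encodes an extracellular matrix protein).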

How the data were processed

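The members and lists were chosen with earlier results of these data known. According to the methods, the authors mapped trimmed bisulfite reads (TrimGalore) to the Oar_rambouillet_v1.0 build with Bismark and bowtie2, dropped duplicates and counted reads in methylKit. The deposited tables hold raw counts per cytosine, strand and sample, without normalization, for sites with 10 or more reads in each sample of a generation. RNA reads were trimmed with Trimmomatic, aligned with STAR and deposited by the authors as raw counts per gene, used here for the marker check only. The 6 tables of CHG and CHH sites were not used.

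Here the level was 100 times methylated reads over coverage. Positions were matched between generations by chromosome, position and strand. The likelihood-ratio test was computed with SciPy 1.17.1, and limma 3.58.1 was fitted to the levels. Both, and the member rule, were run on simulated data. For the likelihood-ratio test and limma, simulated rams of a diet had the same level at a site, so variation among rams was not covered. Reads of 1 ram are not independent, and samples of 1 family are related. A single read is worth 10 points of level at 10 reads. Named cytosines were the 6 nearest to 5, 10 and 5 rams per class, the 2 largest F2 differences per direction, up to 6 DMCs of all 3 generations in 1 direction, the fullest 5 kb window, and 2 sites on each side of the 18-ram limit. No annotation of the build was used here, so gene and repeat names are words from the study's own DMC lists. Alternatives are in the closing section.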

Additional observations from a re-analysis of the deposited data

Results flagged for a closer look

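In the treated F0 group, 23T had 81.2% of its levels at the three-level cytosines in a class, far from the other 4 treated rams (89.8 to 91.4%). Its coverage at these positions, a median of 24 reads, was the lowest of the 10 F0 rams. At chr1:240019288, 3T had a level of 94.4% while the other 4 treated F0 rams had 40 to 52.2%. These were 2 of 66 sets of values looked at. Chance alone sets apart about 1 in 20 sets when values have a normal spread. The levels of rams at single three-level cytosines cluster in 3 classes, so this rate need not hold for them.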

How the results depend on the processing

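The number of three-level cytosines depended on the rule. It was 429 with classes of at most 5, 40 to 60 and at least 95%, 4755 with at most 15, 30 to 70 and at least 85%, 526 when all 20 rams needed a class, 4489 with 16 rams, 4357 with 1 ram in each outer class, and 406 and 87 with at least 15 and 20 reads in every ram. The share of autosomal sites was 2.71% at 10 reads, 2.79% at 15 and 2.44% at 20, so the last 2 counts fell with the number of sites. Members called between the diets fell from 773 to 465 in F2, from 379 to 243 in F0 and from 222 to 132 in F1 at 25 points. At 15 reads 106 of the 406 members left were called in F2. With limma 0 members and 0 of all CG sites were called in F2, F0 and F1, also with the F0 sire as a block in F2. Leaving out 1 sample gave 398 to 482 members in F0 and 222 to 296 in F1, but these were partly other members. Of the 379 F0 calls 219 (without 4C) to 327 were made again, and of the 222 F1 calls 138 (without 9T) to 191. The share of F2 differences of 20 points that were three-level cytosines was 33.8% at 25 points, 46.2% at 20 reads (24 of 52 sites), 4.70% with the narrower and 47.7% with the wider classes. The ratio to 2pq was 1.12 in F0 (1.06 with the small-sample correction) against 0.905, and 0.875 to 0.961 under the other settings, and the cause of the F0 value was not tested. As a mean difference in level, families were 7.12 points closer within than between. The share of F0 levels in a class stayed between 89.3 and 90.8% without any 1 ram, and the difference between own and other sires between -11.5 and -10.8 points without any 1 sire and its pool. The settings without ramF2_400.24C, with limits at 25 and 75%, with the correction of 2pq for small samples with F0 for 2pq and with pairs of consecutive numbers were chosen after seeing the data. Without ramF2_400.24C, and with 1 ram fewer needed in a class, the rule gave 2982 members. Of the original members, 790 were called in F2 without this ram. The labels do not name the twin pairs. Taking F0 rams of consecutive numbers as pairs, limma also called 0 members in F0 and 0 in F1. The shallowest ram, ramF2_400.24C at 12 reads, had 36.4% of its levels in the middle and 21.7% in the high class, against medians of 38.8 and 29.9% over the 20 rams.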
